A study of Mus musculus with 8 samples.

Results

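Non-coding RNA genes made up 4247 of the 18473 genes in the deposited table, and 184 of them form the set described here. They are the genes of the table's non-coding class whose mean over the 8 libraries was at least 2 FPKM (fragments normalised for gene length and sequencing depth), with Gas5 and the Snhg genes left out. Of 199 non-coding genes at that level, 15 were left out by name. The members were chosen by their mean level over both groups, so their level is a description and not a finding. The choice used no contrast between the groups, but a mean over both can be carried by the group in which a gene is high. A mean of 2 FPKM was reached by 144 members in both groups, by 15 in EXO only and by 25 in LPS only.

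The 8 RNA-seq libraries are of mouse cells, with 4 under the title EXO and 4 under LPS, made to ask which genes differ between these conditions. The labels name tissue Lung, cell line MLE-12, a mouse lung epithelial line, and an epithelial cell type for all 8 libraries, while the design text speaks of macrophages that received ADSC-Exos. LPS usually stands for lipopolysaccharide, a component of bacterial cell walls that activates macrophages, and exosomes are small vesicles released by cells, but the labels spell out neither abbreviation. No label gives a dose, a time, an animal or a culture, or says whether the EXO cells also received LPS.

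Long non-coding RNAs are transcribed by RNA polymerase II like messenger RNAs and are often spliced and polyadenylated, but no protein is known to be made from them. Some stay in the nucleus and organise bodies such as nuclear speckles and paraspeckles, some act on a neighbouring gene, and some are known mainly as carriers of small nucleolar RNAs or microRNAs that are cut from their introns or exons. In macrophages, several are switched on together with interferon and inflammatory genes. Many others have only a clone or prediction number and are given no role here.

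The members that host microRNAs are shown first, with the mature sequences they carry. In the RefSeq and GENCODE annotation of GRCm38, 4 members hold at least 1 microRNA hairpin on their own strand, namely Mir22hg, Mir17hg, E130102H24Rik and 2900076A07Rik. The sequences are those of RefSeq for build GRCm38.p6, written 5′ to 3′, and capitals mark the seed, bases 2 to 8, which pairs with target messages. Mir22hg holds the arms of miR-22, at chr11:75463734-75463755 and chr11:75463772-75463793 on the plus strand. E130102H24Rik holds miR-101a, with its 3p arm at chr4:101346957-101346977 on the minus strand. 2900076A07Rik holds miR-1839, whose 5p arm lies at chr7:81529919-81529940 on the plus strand.
mmu-miR-22-5p: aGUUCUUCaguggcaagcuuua
mmu-miR-22-3p: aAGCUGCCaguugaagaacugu
mmu-miR-101a-3p: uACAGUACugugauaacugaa
mmu-miR-1839-5p: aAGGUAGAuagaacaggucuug

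Mir17hg, known as a host of growth-promoting microRNAs, holds 6 hairpins on the plus strand of chromosome 14. The arms below are shown because they fall into seed groups. miR-17-5p and miR-20a-5p share the seed AAAGUGC, and miR-18a-5p has a seed close to it. miR-19a-3p and miR-19b-3p share GUGCAAA, and miR-92a-3p has a seed of its own among them. The first of these arms lies at chr14:115043684-115043706 and the last at chr14:115044476-115044496.
mmu-miR-17-5p: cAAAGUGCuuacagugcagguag
mmu-miR-20a-5p: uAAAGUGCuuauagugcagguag
mmu-miR-18a-5p: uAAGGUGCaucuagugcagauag
mmu-miR-19a-3p: uGUGCAAAucuaugcaaaacuga
mmu-miR-19b-3p: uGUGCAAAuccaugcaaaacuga
mmu-miR-92a-3p: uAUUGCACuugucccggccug

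The mature microRNAs were not measured here, and the values below are of the host genes. Mir22hg stood at 2.75, 2.60, 2.72 and 2.91 FPKM in EXO replicates 1 to 4 and at 8.26, 13.6, 10.97 and 9.99 in LPS replicates 1 to 4. Every LPS library was above every EXO library, and the EXO libraries lay close together. The means were 2.75 ± 0.130 FPKM in EXO and 10.7 ± 2.24 in LPS (SD, n = 4 each), a level 3.90 times higher in LPS. The log2 fold change was -1.63 ± 0.13 (SE), with a limma adjusted p of 3.48e-07. All fold changes take EXO minus LPS after log2(FPKM + 1), a scale that compresses differences at low values. They come from limma fitted to the 9812 genes that had at least 1 FPKM in at least 4 libraries, with Benjamini-Hochberg adjustment over those genes, two-sided, and a threshold of 0.05. A gene past it is said to be called higher or lower in EXO.

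E130102H24Rik, the host of miR-101a, was at 0.924, 0.648, 0.685 and 0.864 FPKM in the EXO libraries and at 1.91, 5.997, 2.99 and 2.02 in the LPS libraries. The groups did not overlap, and LPS replicate 2 was the highest. It was lower in EXO by limma (log2 fold change -1.16 ± 0.24, adjusted p = 0.00157). It passed the level of 2 FPKM only through LPS, so it had to be higher there to be a member. Mir17hg was not called, with 1.74, 1.37, 2.63 and 1.14 FPKM in EXO and 1.54, 3.19, 1.18 and 4.19 in LPS. It too reached 2 FPKM through LPS only. Its groups overlapped, and the LPS libraries spread over a wider range than the EXO libraries (log2 fold change -0.31, limma adjusted p = 0.362). 2900076A07Rik was not called either, with means of 2.31 ± 0.126 FPKM in EXO and 2.02 ± 0.548 in LPS (SD, n = 4). Of the 4 hosts, 2 were called lower in EXO, Mir22hg and E130102H24Rik, and 2 were not called. Of all genes tested, 24.7% were lower and 33.7% higher. Nothing is read from the count of hosts, since the direction of E130102H24Rik was set by how members were chosen.

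The 8 libraries held between 37061862 and 40641290 fragments, as recovered from the steps of the deposited values, and the members took 0.475% to 0.598% of them. The members held 180348 to 225011 fragments in a library, and Gm26917 alone, described below, held 86810 to 150488. The median member rested on 196 fragments in a library, the lowest on 3, and no member was at 0 in any library. Of the macrophage markers, 10 of 10 had a mean of at least 1 FPKM, with a summed level of 5565 to 6890 in the EXO libraries and 10160 to 21390 in the LPS libraries. The epithelial markers Elf3 and Ocln, the 2 of 9 general epithelial markers in the table, summed to at most 0.0233 FPKM in any library, against the labelled cell type. Of 8 alveolar type 2 markers, Sftpc, Sftpb, Sftpa1, Sftpd and Nkx2-1 were not in the table. Of the 3 in the table, Lamp3, Abca3 and Etv5, 2 had a mean of at least 1 FPKM (sums of 11.97 to 15.3 in EXO and 13.96 to 20.6 in LPS). The 2 of 4 neutrophil markers in the table summed to 3.79 to 6.66 in EXO and 5.02 to 10.6 in LPS. For alveolar macrophages 1 of 5 markers reached 1 FPKM, with sums of 4.57 to 8.20 in EXO and 9.37 to 15.3 in LPS, and for fibroblasts, endothelium, and T and B cells none did. The summed markers of both macrophage lists thus moved with the groups, and their part in the results below was not tested. In bulk RNA, fewer cells of a type and less RNA per cell cannot be told apart.

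Of the 184 members, 40 (21.7%) were called higher in EXO, 65 (35.3%) were called lower and 79 were not called. Over all genes tested, 33.7% were called higher and 24.7% lower, 58.4% in either direction. These shares of the members include those that reached the level through one group. Their median log2 fold change was -0.17, against 0.09 for all genes tested and -0.15 for the 333 non-coding genes tested. The members' median stood at -0.05 without EXO replicate 3, the library in which 82 members had the lowest value of their group. All 184 members passed the filter on low values.

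**Figure D1:**
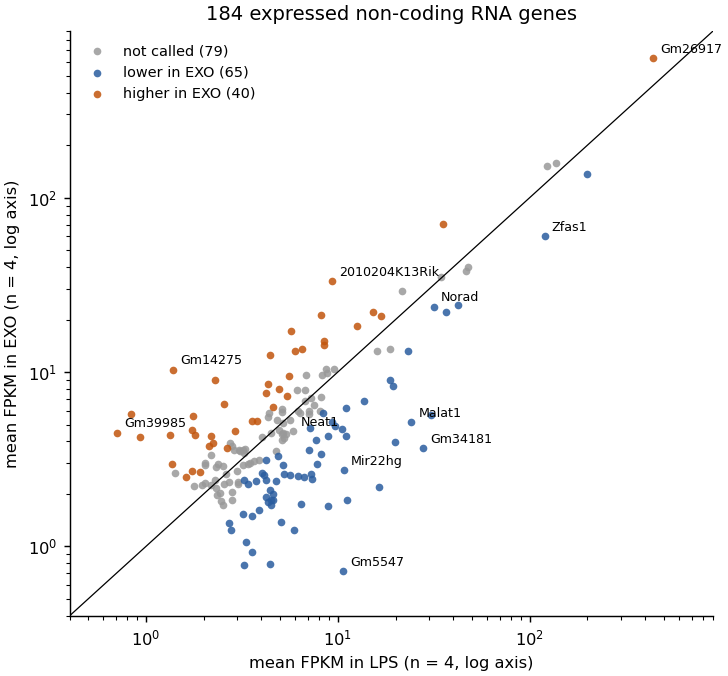
Mean FPKM in LPS (horizontal, log axis) and in EXO (vertical, log axis) of the 184 genes, n = 4 libraries a group, with the line of equal means. The 65 genes called lower in EXO lie below the line and the 40 called higher lie above it, with Gm5547 and Gm34181 far below and Gm14275 far above.

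Members that reached 2 FPKM in both groups did not owe their place in the set to one of them. Among these 144, 28 (19.4%) were called higher, 44 (30.6%) lower and 72 were not called, against 33.7% and 24.7% of all genes tested, and the median log2 fold change was -0.12. The 15 members that reached it in EXO only (12 called higher, 3 not called) and the 25 that reached it in LPS only (21 called lower, 4 not called) had to differ in that direction, and nothing is read from them. Among the 144, the groups did not overlap in 18 members (12.5%) higher and 34 (23.6%) lower in EXO. Over all genes tested, 51.2% did not overlap, 29.1% higher and 22.1% lower in EXO, so the lower share was near that of all genes. Differences of at least 1 on the log2 scale that passed the test were seen in 7 of the 144 (4.86%) higher and 14 (9.72%) lower in EXO, against 5.19% and 6.48% of all genes tested. All genes tested needed at least 1 FPKM in at least 4 libraries, which 1 group can supply. The 144 and all genes thus passed unlike filters, and nothing is read from the differences between their shares.

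**Figure D2:**
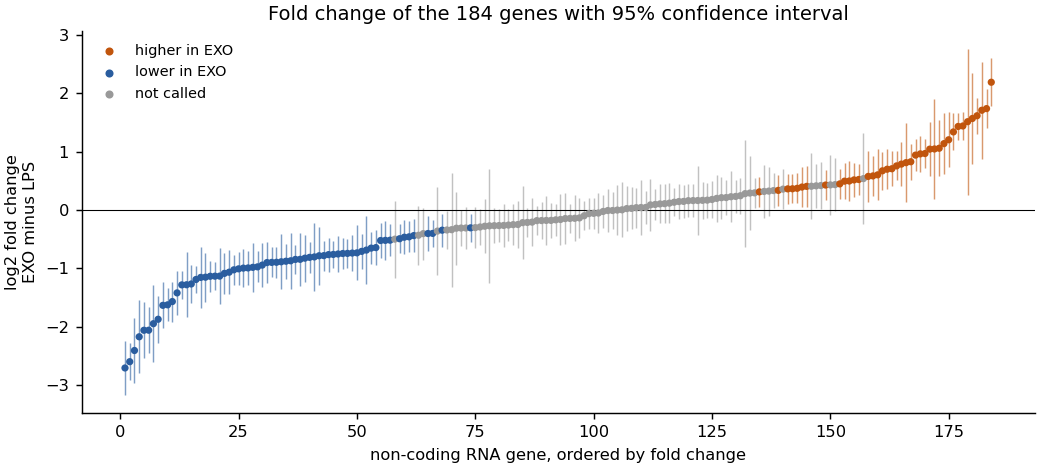
Log2 fold change of EXO minus LPS (vertical) with its 95% confidence interval for each of the 184 genes, ordered from lowest to highest. The values run from -2.71 to 2.19, and the 79 genes not called lie in the middle of the order, mixed at its edges with called genes.

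Kinds of member could be told by their names, and their counts stand beside the 33.7% of all genes called higher and the 24.7% called lower. Of 82 predicted genes (Gm or LOC numbers), 17 were called higher and 31 lower. Of 67 RIKEN clones, 13 were called higher and 24 lower, and of 7 genes named after other clones, 2 and 2. Of 12 genes named as opposite strand transcripts, 3 were called higher and 2 lower, and of 14 with other names, 5 and 5. These counts include members that reached 2 FPKM through EXO only or LPS only, whose direction was set by how members were chosen. In RefSeq for GRCm38, 174 members are annotated as lncRNA, 9 are not in the table used, and Zfp33b is annotated as protein-coding. The members were short, with a median length of 1048 bases, from 105 to 20773, where the median protein-coding gene of the table had 3483.

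The most abundant members were few. Gm26917 led with 690.3, 649.9, 540.0 and 633.8 FPKM in EXO and 485.3, 386.4, 397.2 and 482.4 in LPS. Every EXO library was above every LPS library, and limma called it higher (log2 fold change 0.52 ± 0.12, adjusted p = 0.00214). In GENCODE M21 for GRCm38 it lies 12 bases from CT010467.1, a ribosomal RNA gene, and the part of fragments from ribosomal RNA in its level was not tested. The next was AI662270, at 152, 113, 151 and 134 FPKM in EXO and 159, 221, 181 and 236 in LPS, again without overlap but in the other direction (-0.52 ± 0.14, limma adjusted p = 0.00564). 2810001A02Rik stood at 76.3, 61.8, 64.0 and 78.6 FPKM in EXO and 35.8, 33.5, 38.3 and 33.4 in LPS, a level 1.99 times higher in EXO in groups that lay well apart (0.97 ± 0.12, limma adjusted p = 8.98e-06). Gm33370 was lower in EXO, at 24.3 ± 2.80 against 42.3 ± 7.84 FPKM (SD, n = 4; -0.76, limma adjusted p = 2.54e-04). Gm43351 (39.8 ± 5.59 FPKM in EXO and 48.0 ± 5.12 in LPS) and Gm41699 (37.8 ± 15.02 and 46.5 ± 11.2) overlapped between the groups and were not called. Gm43351 passed the test, lower in EXO, when LPS replicate 1 was left out (-0.35, limma adjusted p = 0.0411) and under median-of-ratios rescaling (-0.34, limma adjusted p = 0.0291).

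Members that host small nucleolar RNAs, which guide the chemical modification of ribosomal RNA, took 4 further places among the 10 most abundant. In the annotation the span of 9 members holds at least 1 small nucleolar RNA, with strands not compared, and these members are called hosts here. Of the 9 hosts, 3 were called higher, 1 lower and 5 not called, with 33.7% and 24.7% of all genes tested called higher and lower. Zfas1, which carries Snord12 and overlaps the start of Znfx1, was the one called lower. Its values were 70.2, 62.8, 39.4 and 68.9 FPKM in EXO and 109.6, 97.7, 109.2 and 162 in LPS. All LPS libraries were above all EXO libraries, with EXO replicate 3 lowest and LPS replicate 4 highest. The level was 1.98 times higher in LPS (log2 fold change -0.98 ± 0.20, limma adjusted p = 9.22e-04).

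None of the other hosts was called lower. 2410006H16Rik, with Snord49a, Snord49b and Snord65, was at 161, 182, 115 and 175 FPKM in EXO and 129, 109.5, 129.6 and 178 in LPS, values that overlapped (0.21, limma adjusted p = 0.292). Without LPS replicate 4 it was called higher (0.35, limma adjusted p = 0.0471). 1110038B12Rik, with Snord52, was at 179.8, 163, 125 and 139 in EXO and 128, 119, 123 and 120.1 in LPS, with only EXO replicate 3 inside the range of the LPS libraries, and fell just outside the threshold (0.29, limma adjusted p = 0.0517). Without EXO replicate 3 it was called higher (0.38, limma adjusted p = 0.019). Epb41l4aos had the least difference of the abundant hosts, at 37.7, 34.0, 34.4 and 34.8 FPKM in EXO and 45.6, 30.8, 32.0 and 30.1 in LPS. LPS replicate 1 alone stood above EXO and the other 3 stood below it (0.04, limma adjusted p = 0.794). Gm36220, with Snord104 (29.1 ± 10.1 and 21.6 ± 6.28 FPKM), and 1600010M07Rik, with Snora23 (5.96 ± 1.89 and 8.09 ± 1.81 FPKM), were not called, though the latter was lower in EXO when LPS replicate 4 was left out (-0.56, limma adjusted p = 0.0184). The hosts called higher were Rab26os, 5730408K05Rik with Snora57 and AA465934 with Snord7. Of these, 5730408K05Rik (log2 fold change 1.05, limma adjusted p = 0.0388) and AA465934 (0.81, limma adjusted p = 0.0413) lay near the threshold. The first lost the call without EXO replicate 3 or any of LPS replicates 1 to 3, and the second without EXO replicates 1, 2 or 4 or LPS replicates 1 or 2 (limma adjusted p up to 0.108 and 0.0988). These 4 smaller hosts without an opposite strand name were chosen for mention after their values were seen, since they complete the 9.

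Among members with a described role, the nuclear RNAs were lower in EXO or not called. Malat1, which concentrates in nuclear speckles, stood at 5.85, 6.83, 4.43 and 3.599 FPKM in EXO and at 15.8, 40.9, 23.8 and 16.01 in LPS. The lowest LPS library was above the highest EXO library, and LPS replicate 2 stood above the rest of its group. The means were 5.18 ± 1.44 and 24.1 ± 11.8 FPKM (SD, n = 4), so the LPS level was 4.66 times that in EXO (log2 fold change -1.95 ± 0.29, limma adjusted p = 3.29e-04). Neat1, the scaffold of paraspeckles and with 20773 bases the longest member, was not called. It stood at 4.93, 3.86, 4.82 and 4.71 FPKM in EXO and at 6.67, 7.75, 5.79 and 3.19 in LPS. LPS replicate 4 was below all EXO libraries and the other LPS libraries were above them (log2 fold change -0.25 ± 0.19, limma adjusted p = 0.276). Without LPS replicate 4 the log2 fold change was -0.47 and Neat1 was called lower, with an adjusted p of 0.0032 in limma.

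Norad, a cytoplasmic RNA that binds Pumilio proteins, was at 21.5, 22.8, 25.0 and 25.6 FPKM in EXO and at 33.1, 31.9, 30.1 and 31.4 in LPS. The groups did not overlap, though the difference was modest (log2 fold change -0.40 ± 0.11, limma adjusted p = 0.00471). Oip5os1, also called Cyrano and known for a site that directs the decay of miR-7, showed 14.5, 11.9, 13.4 and 13.3 FPKM in EXO and 20.9, 24.8, 24.7 and 22.3 in LPS, again apart (-0.76 ± 0.11, limma adjusted p = 4.81e-05). Dubr, studied in mouse muscle cell differentiation, was at 4.01, 3.98, 4.05 and 5.18 FPKM in EXO and 10.9, 10.5, 11.5 and 11.3 in LPS. Its EXO replicate 4 was the highest of that group and still under every LPS library (-1.19 ± 0.11, limma adjusted p = 1.08e-06).

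Hotairm1, a transcript that was described in human myeloid cells, was called higher. Its values were 23.8, 19.4, 19.4 and 21.2 FPKM in EXO and 17.8, 18.6, 16.6 and 13.9 in LPS. All EXO libraries were above all LPS libraries, by a small margin (log2 fold change 0.31 ± 0.12, limma adjusted p = 0.0385), and the call was lost without EXO replicates 1 or 4 or LPS replicates 3 or 4 (limma adjusted p up to 0.12) and under rescaling or voom. Bc1, a short RNA polymerase III transcript that represses translation in neurons, stood at 30.5, 24.5, 16.3 and 13.8 FPKM in EXO and 2.08, 3.85, 13.4 and 13.4 in LPS. The groups did not overlap, but LPS replicates 3 and 4 came close to the lowest EXO library, and the values rest on only 13 to 177 fragments (1.51 ± 0.54, limma adjusted p = 0.0419). Sequences related to Bc1 occur as repeats in rodent genomes, so the placement of its fragments is uncertain. Its call was lost on leaving out any library other than LPS replicates 3 and 4 (limma adjusted p up to 0.105). Ptgs2os2, a macrophage transcript next to Ptgs2 also known as lincRNA-Cox2, had 3.50 ± 0.510 FPKM in EXO and 4.79 ± 1.27 in LPS (SD, n = 4) and was not called (-0.34, limma adjusted p = 0.0652). It was called lower without EXO replicate 2 (-0.42, limma adjusted p = 0.0367), without LPS replicate 1 (-0.48, limma adjusted p = 0.00966) and under rescaling.

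**Figure D3:**
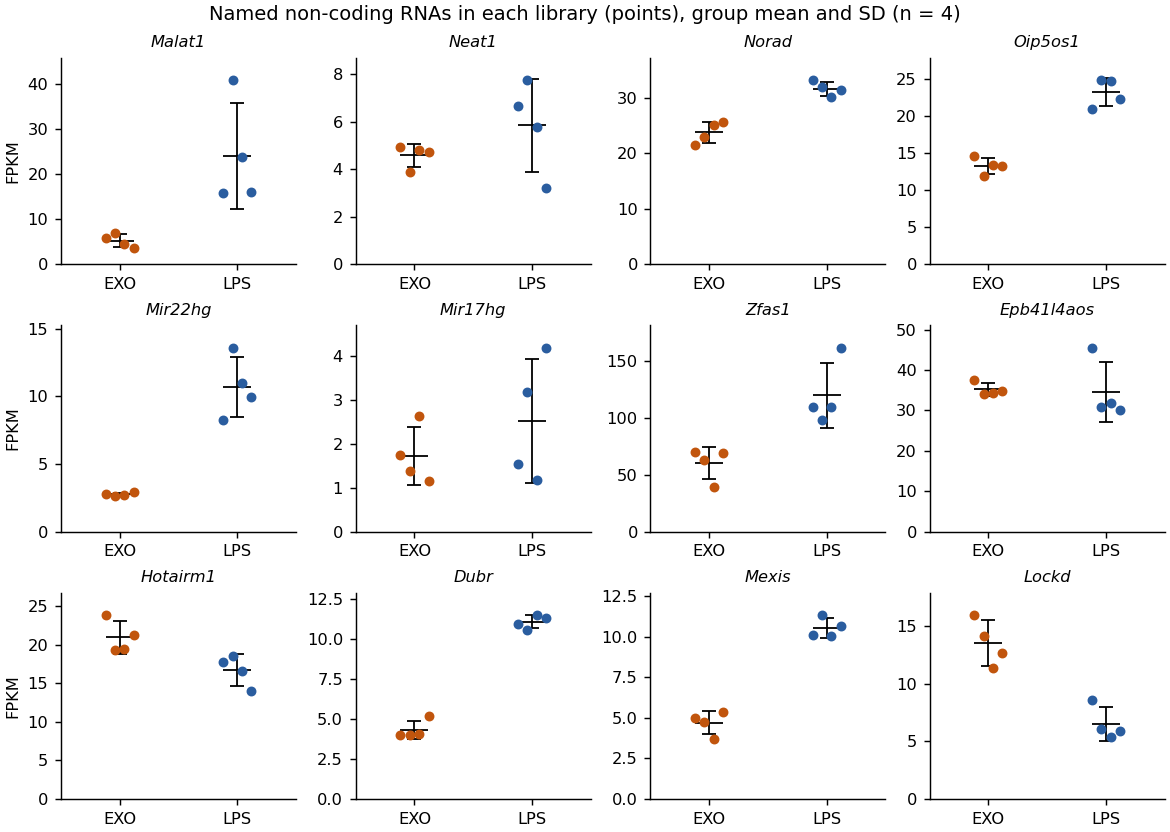
FPKM of 12 non-coding RNAs in each library (points), with the group mean and SD (bars, n = 4). Malat1, Norad, Oip5os1, Mir22hg, Zfas1, Dubr and Mexis lie lower in every EXO library than in any LPS library, Hotairm1 and Lockd lie higher, and Neat1, Mir17hg and Epb41l4aos overlap.

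The other genes of the lists from which these RNAs come were counted too, below the members' level included. Of 16 nuclear architecture RNAs listed, 7 were tested, with 0 higher, 5 lower and 2 not called. Of 26 immune and macrophage lncRNAs, 5 were tested, with 0 higher, 2 lower and 3 not called. Of 31 growth and stress lncRNAs, 21 were tested, with 5 higher, 8 lower and 8 not called. Both of the tested structural and catalytic RNAs were higher, and of 11 imprinted RNAs none reached the filter. Of all genes tested, 33.7% were called higher and 24.7% lower. The nuclear and immune lists held no higher call, but among only 7 and 5 tested genes. Hotairm1, called higher above, was in neither of these 2 lists, so such counts depend on how the lists were drawn.

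Most of the lowest fold changes belonged to genes known only by a number. Gm5547 had the lowest, at 0.695, 0.611, 0.529 and 1.06 FPKM in EXO and 14.7, 12.1, 10.3 and 5.76 in LPS. It rests on as few as 9 fragments in a library, and LPS replicate 4 was the lowest of its group but well above EXO (log2 fold change -2.71 ± 0.22, limma adjusted p = 1.10e-06). Its mean was 14.8 times higher in LPS. Gm34181 was at 3.45, 4.19, 3.33 and 3.63 FPKM in EXO and 24.1, 38.3, 25.1 and 23.4 in LPS, a level 7.59 times higher in LPS (-2.60 ± 0.15, limma adjusted p = 1.82e-08). Both groups were narrow apart from LPS replicate 2, which was the highest.

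2500002B13Rik was at 7.36, 6.22, 4.78 and 4.39 FPKM in EXO and 32.3, 41.3, 33.8 and 14.9 in LPS, with LPS replicate 4 again the lowest of LPS (log2 fold change -2.17, limma adjusted p = 1.07e-04). Gm38965 showed the same order of LPS libraries, at 2.61, 2.72, 1.29 and 2.12 FPKM in EXO and 17.96, 20.9, 18.2 and 8.56 in LPS (-2.41, limma adjusted p = 1.49e-05). LPS replicate 4 was below the other LPS libraries in 34 of the 65 members called lower. Gm42312 (1.71 ± 0.623 FPKM in EXO and 8.89 ± 2.11 in LPS) and Gm28188 (1.25 ± 0.636 and 5.90 ± 1.45) complete the 10 lowest with Gm20559, Gm13822, Malat1 and Mir22hg. Gm5547, Gm20559, Gm42312 and Gm28188 reached the level of 2 FPKM through LPS only.

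Gm20559 has Samd9l, an interferon-induced gene, as its nearest protein-coding gene. It stood at 1.53, 2.76, 1.53 and 1.53 FPKM in EXO and 6.76, 15.6, 9.22 and 13 in LPS. EXO replicate 2 was the highest of its group, LPS replicate 1 the lowest of the other, and the groups lay apart (log2 fold change -2.06 ± 0.22, limma adjusted p = 1.01e-05). Its promoter and that of Gm38965 are shown because both hold the interferon response element GAAANNGAA, marked in capitals. Each window runs from 250 bases before to 50 after the annotated start, read along the gene's strand, from RefSeq for GRCm38.p6. The window of Gm20559 is chr6:3346089-3346388, minus strand, and the motif begins 17 bases after the start. The first 40 bases after this start also occur in a Samd9l transcript in the annotation, so fragments from them cannot be told apart. That of Gm38965 is chr7:24853575-24853874, plus strand, with the motif 8 bases after the start.
Gm20559: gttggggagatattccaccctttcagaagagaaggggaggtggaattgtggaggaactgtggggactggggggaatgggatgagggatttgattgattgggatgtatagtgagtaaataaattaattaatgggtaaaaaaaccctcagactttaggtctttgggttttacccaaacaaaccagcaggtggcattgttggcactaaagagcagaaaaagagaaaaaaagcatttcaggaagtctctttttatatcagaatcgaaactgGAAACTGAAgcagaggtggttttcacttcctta
Gm38965: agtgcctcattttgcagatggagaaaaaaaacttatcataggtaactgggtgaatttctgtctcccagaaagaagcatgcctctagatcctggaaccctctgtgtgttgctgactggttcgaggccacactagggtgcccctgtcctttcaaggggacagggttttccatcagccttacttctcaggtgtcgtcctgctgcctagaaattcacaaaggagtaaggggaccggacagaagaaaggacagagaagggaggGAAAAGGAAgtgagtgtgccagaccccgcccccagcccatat

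Most of the highest fold changes also belonged to such genes. Gm14275 was at 10.7, 14.8, 9.66 and 6.04 FPKM in EXO and 1.53, 1.23, 1.42 and 1.35 in LPS, a mean 7.46 times higher in EXO (log2 fold change 2.19 ± 0.19, limma adjusted p = 1.28e-06). The LPS libraries lay close together and the EXO libraries spread more. 2010204K13Rik was the most abundant of the 10 highest, at 41.4, 30.8, 28.6 and 31.9 FPKM in EXO and 6.91, 9.81, 11.8 and 8.70 in LPS. Its lowest EXO library stood well above its highest LPS library, and the mean was 3.57 times higher in EXO (1.74 ± 0.15, limma adjusted p = 6.83e-07). 2810408I11Rik was at 18.1, 16.1, 15.7 and 18.9 FPKM in EXO and 6.03, 5.50, 5.38 and 6.002 in LPS, narrow in both groups (1.43 ± 0.11, limma adjusted p = 1.91e-07).

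Gm39792 (9.03 ± 1.49 FPKM in EXO and 2.28 ± 0.534 in LPS) and AU020206 (12.6 ± 1.79 and 4.41 ± 1.13) were higher in every EXO library than in any LPS library (log2 fold changes 1.62 and 1.34). Gm19765, Gm39985, Gm40007 and 2510003B16Rik, with log2 fold changes of 1.71, 1.57, 1.44 and 1.20, reached the level of 2 FPKM through EXO only, as did Gm14275. Gm39985 rests on as few as 4 fragments and on EXO replicate 2, at 9.18 FPKM where the other EXO libraries had at most 3.65. Gm40007 varied little within each group, at 4.26 ± 0.532 and 0.935 ± 0.145 FPKM (SD, n = 4). Bc1, described above, completes the 10.

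**Figure D4:**
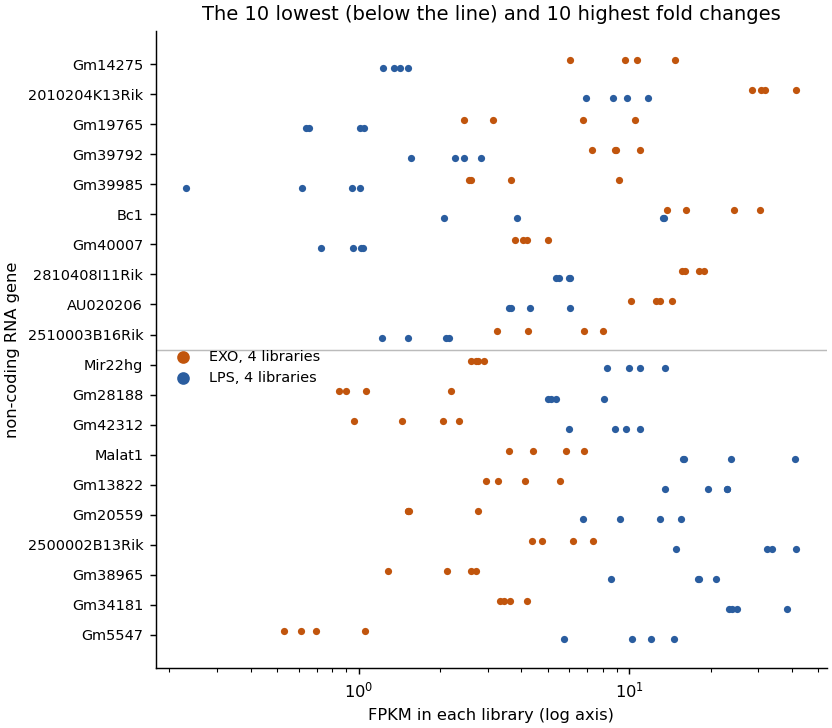
FPKM in each library (log axis) of the 10 genes with the highest and the 10 with the lowest fold change among members that passed the test without overlap between the groups. For Bc1 the highest LPS libraries come close to the lowest EXO library, and for Gm5547 and Gm34181 the groups lie far apart.

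The promoters of 2010204K13Rik and D730003I15Rik, both higher in EXO, are shown as examples of a window that holds both an AP-1 site, TGANTCA, and a canonical E-box, CACGTG. Of 5 members with such a window, 4 were called higher, including 2810408I11Rik and Gm12589, and 3300005D01Rik was called lower (log2 fold change -0.85). Of all genes tested, 33.7% were called higher and 24.7% lower, and the share of all genes with such a window was not counted. These 5 members were looked up after their values were seen, so nothing is read from their count. Both motifs are in capitals. The window of 2010204K13Rik is chrX:7422939-7423238, minus strand, with the AP-1 site 113 bases before the start and the E-box 18 bases after it. A further annotated start of this gene holds neither motif. The window of D730003I15Rik is chr1:191224204-191224503, plus strand, with the AP-1 site beginning 11 bases before the start and the E-box 29 bases after it. D730003I15Rik was chosen for mention after its values were seen, for its neighbour Atf3.
2010204K13Rik: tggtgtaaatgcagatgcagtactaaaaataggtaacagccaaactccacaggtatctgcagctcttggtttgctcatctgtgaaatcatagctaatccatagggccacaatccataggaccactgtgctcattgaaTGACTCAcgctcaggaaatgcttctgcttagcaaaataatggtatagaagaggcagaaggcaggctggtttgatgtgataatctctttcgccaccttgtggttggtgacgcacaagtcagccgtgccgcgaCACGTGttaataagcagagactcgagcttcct
D730003I15Rik: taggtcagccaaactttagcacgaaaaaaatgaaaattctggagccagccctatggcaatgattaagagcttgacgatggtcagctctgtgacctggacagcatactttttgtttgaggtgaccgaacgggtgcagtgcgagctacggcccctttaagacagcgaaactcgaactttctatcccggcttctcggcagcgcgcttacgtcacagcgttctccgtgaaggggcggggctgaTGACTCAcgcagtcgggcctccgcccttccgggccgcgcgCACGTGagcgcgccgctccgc

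A promoter window was available for 138 members, of which 30 were called higher, 46 lower and 62 not called. Exact matches were counted on both strands in any window of a gene. The interferon response element GAAANNGAA was present in 5 of the higher, 8 of the lower and 4 of the members not called (16.7%, 17.4% and 6.45%), against 9.76% of all 27025 genes with a window. The AP-1 site TGANTCA was in 6, 5 and 3 of them (20%, 10.9% and 4.84%), against 8.97% of all genes. The E-box CACGTG was in 7, 6 and 10 (23.3%, 13% and 16.1%), against 8.09%. The GAS element TTCNNNGAA was in 9 of the 138 (6.52%, all genes 9.55%) and the PU.1 site GAGGAAGT in 11 (7.97%, all genes 3.69%). The kappaB element GGGANTTTC was in 1 (0.725%, all genes 1.29%) and the cAMP response element TGACGTCA in 2 (1.45%, all genes 2.03%). Matches of different motifs were counted separately, whether or not they shared letters, and a match describes the letters, not a bound site. The median GC content of the members' windows was 55.2%, against 52.7% for all. The 27025 genes were not limited to genes expressed here. Members that reached 2 FPKM through 1 group only are among those counted, so nothing is read from the differences between these shares.

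Members named for a gene on the opposite strand could be set beside that gene. Whether fragments were counted by strand is not stated in the labels, so fragments of overlapping genes on opposite strands cannot be told apart. Map2k3os and Map2k3, a kinase that activates p38, were both higher in EXO. Map2k3os was at 4.28, 3.98, 5.17 and 3.96 FPKM in EXO and 1.53, 2.16, 1.34 and 2.17 in LPS, without overlap (log2 fold change 0.94 ± 0.13, limma adjusted p = 3.07e-05), and Map2k3 had 0.93. Map2k3os reached the level of 2 FPKM through EXO only.

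Oip5os1 and Oip5, a centromere protein gene, moved in opposite directions, with log2 fold changes of -0.76 and 1.35. Oip5 stood at 20.7 ± 1.52 FPKM in EXO and 7.55 ± 0.807 in LPS (SD, n = 4; limma adjusted p = 4.04e-07). Rab10os and Rab10, a small GTPase, were also called in opposite directions. Rab10os was at 5.57, 3.97, 4.998 and 3.89 FPKM in EXO and 3.21, 2.16, 3.28 and 3.03 in LPS, all EXO libraries above all LPS libraries (0.52 ± 0.14, limma adjusted p = 0.00458). Rab10 was at 48.6 ± 4.33 and 70.6 ± 4.33 FPKM (-0.53, limma adjusted p = 7.45e-04).

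Of 12 such members, the sense gene was in the table for 10, and for Epb41l4aos and Rab26os it is not analysed here. Rab26os was higher in EXO (log2 fold change 0.49, limma adjusted p = 0.00875), with EXO replicate 2 inside the range of the LPS libraries. Brip1os was lower, at 4.77 ± 0.473 against 7.13 ± 0.832 FPKM (-0.49, limma adjusted p = 0.00216), while Brip1, a DNA repair helicase, was not called (0.36, called higher without EXO replicate 1, LPS replicate 1 or LPS replicate 4). Cep83os and Zeb2os were not called, where Cep83 was higher (0.78) and Zeb2, a transcription factor, was lower (-0.48). For Fam120aos, Sp3os, Ptgs2os2 and Zfp652os neither the member nor the sense gene was called. Fam120aos was called higher without EXO replicate 4 (0.40, limma adjusted p = 0.0433) or LPS replicate 3 (0.44, limma adjusted p = 0.019), and Zfp652os lower without EXO replicate 2 (-0.45, limma adjusted p = 0.0204). Their sense genes' calls changed for Fam120a without EXO replicate 1 or LPS replicate 4 and for Sp3 without LPS replicate 4. Ptgs2, the inducible cyclooxygenase, varied widely within each group, at 12.3 ± 5.51 FPKM in EXO and 12.9 ± 10.9 in LPS.

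Members could be compared with their nearest protein-coding gene, taken at any distance. A gene said to lie beside a member is the nearest one, and the distances are not given here. A nearest protein-coding gene was found for 174 members in the GRCm38 annotation, 54 overlapping it and 120 apart, and 138 of these neighbours were tested. In 44 pairs both genes were called, 29 of them (65.9%) in the same direction, 22 both lower and 7 both higher. Members that reached 2 FPKM through one group are among them. Without these, 18 of 29 pairs (62.1%) had the same direction, 12 both lower and 6 both higher. With all members, the share was 11 of 16 for overlapping pairs and 18 of 28 for pairs apart. Among adjacent protein-coding genes of the table, 1071 of 1852 pairs with both called (57.8%) had the same direction. Pearson's r of the fold changes was 0.37 across the 138 pairs and 0.17 across 5355 adjacent coding pairs. It is given as a description across genes of the same libraries. The 138 pairs include members that reached 2 FPKM through EXO only or LPS only, whose direction was set by how members were chosen. Neither r nor the shares for overlapping pairs and pairs apart were recomputed without these members. Nothing is therefore read from the difference between the values of r. The difference between the shares of member pairs and of adjacent coding pairs was not tested.

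The pairs lower together that are named here, with their neighbours, were chosen after their values were seen. Gm20559 and Gm34643 reached 2 FPKM through LPS only, so nothing is read from their direction. Samd9l, beside Gm20559, was at 3.07 ± 0.345 FPKM in EXO and 19.2 ± 6.96 in LPS (SD, n = 4; log2 fold change -2.24, limma adjusted p = 5.16e-06). Gm13822, at 4.13, 5.54, 2.96 and 3.29 FPKM in EXO and 13.5, 19.6, 22.96 and 23.04 in LPS, lies beside Oasl1, a member of the interferon-induced oligoadenylate synthetase family. Its lowest LPS library was above its highest EXO library (-2.06 ± 0.18, limma adjusted p = 1.36e-06), and Oasl1 was lower too, at 28.95 ± 11.2 against 84.99 ± 28.5 FPKM (-1.53, limma adjusted p = 0.0017). Gm34643 was at 0.607, 1.01, 0.732 and 0.836 FPKM in EXO and 5.09, 5.74, 4.19 and 2.75 in LPS (-1.57, limma adjusted p = 2.93e-06). It lies beside Acod1, the enzyme that makes itaconate in activated macrophages, which was at 135 ± 40.8 and 600.4 ± 96.7 FPKM (-2.18, limma adjusted p = 6.08e-07).

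Mexis is known in mouse macrophages as a transcript near Abca1, the cholesterol exporter, that raises its expression. It was at 4.99, 4.74, 3.71 and 5.37 FPKM in EXO and 10.1, 11.3, 10.1 and 10.7 in LPS. Both groups were narrow and lay apart (log2 fold change -1.03 ± 0.12, limma adjusted p = 6.74e-06). Abca1 was lower as well, at 3.64 ± 1.66 against 11.13 ± 0.9998 FPKM (-1.45, limma adjusted p = 8.23e-05). Znfx1, an interferon-induced helicase gene that Zfas1 overlaps, was at 5.44 ± 0.599 and 17.0 ± 1.01 FPKM (-1.49, limma adjusted p = 1.55e-07).

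Other members were called against their neighbour, and Lockd, D730003I15Rik and A930006K02Rik were chosen from these after their values were seen. Lockd, which lies downstream of the cell cycle inhibitor gene Cdkn1b, was at 15.98, 14.2, 11.4 and 12.7 FPKM in EXO and 8.63, 6.12, 5.39 and 5.89 in LPS. Its groups did not overlap and it was higher in EXO (log2 fold change 0.96 ± 0.14, limma adjusted p = 6.37e-05), while Cdkn1b was lower (-0.72). D730003I15Rik was at 11.7, 16.02, 10.3 and 14.5 FPKM in EXO and 7.92, 6.85, 5.97 and 3.10 in LPS, higher in EXO (1.06 ± 0.22, limma adjusted p = 0.00129) beside Atf3, a stress-induced transcription factor that was lower (-0.89). A930006K02Rik was higher (0.83) and Ifnar1, a chain of the type I interferon receptor, lower (-0.60).

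**Figure D5:**
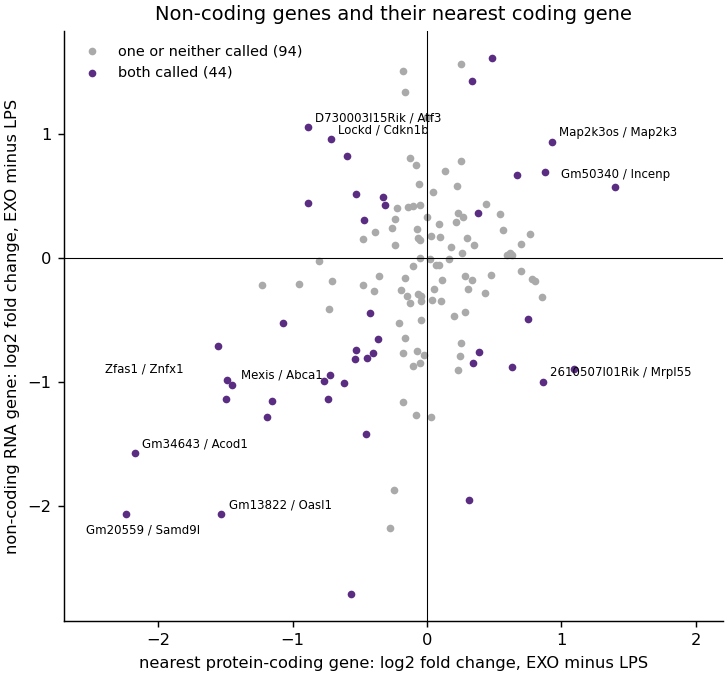
Log2 fold change, EXO minus LPS, of the nearest tested protein-coding gene (horizontal) and of the non-coding gene (vertical) for 138 pairs. Of the 44 pairs with both genes called, 22 lie at the lower left (both lower), 7 at the upper right (both higher) and the others in the opposite quadrants.

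The genes that encode protein partners of well-known non-coding RNAs were counted from lists, beside 33.7% of all genes tested called higher and 24.7% lower. Proteins were not measured, so here and below higher or lower refers to the RNA of the gene that encodes a protein. Of 18 tested paraspeckle proteins, the partners of Neat1, 9 were higher in EXO, 1 was lower and 8 missed the threshold (median log2 fold change 0.38). Dazap1 (0.88), Ewsr1 (0.72) and Smarca4 (0.69) had the smallest p. Of 21 nuclear speckle proteins, 10 were higher and 1 lower (median 0.51), with Rnps1 at 65.1 ± 6.42 FPKM in EXO and 35.5 ± 1.02 in LPS. The median over all genes tested, given above, was 0.09.

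For other particles too, the shares over all genes were 33.7% higher and 24.7% lower. Of 9 proteins of RNase P and RNase MRP, 6 were higher and 0 lower (median 0.74), led by Rpp30 and Rpp40 with log2 fold changes of 1.22 and 1.35. Of 7 genes of telomerase proteins all 7 were higher (median 1.04), among them Nhp2, Nop10 and Gar1, whose proteins also bind small nucleolar RNAs. Nhp2 stood at 461 ± 63.5 FPKM in EXO and 206 ± 27.7 in LPS. Of 9 proteins of the 7SK particle, 6 were higher and 1 lower (median 0.32), with Larp7 at 0.94. Of 8 signal recognition particle proteins, 2 were higher and 1 lower (median 0.09), and the call of Srp9 (0.32) was lost without EXO replicates 1 or 4 or LPS replicates 1 or 2.

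For RNA turnover, 16 of 19 tested factors of the RNA exosome and its targeting, a nuclear machinery that trims and degrades RNA and is unrelated to secreted exosomes, were higher and 1 was lower (median 0.62), against 33.7% and 24.7% of all genes tested. Exosc8 stood at 134 ± 7.70 FPKM in EXO and 53.3 ± 6.20 in LPS (SD, n = 4; 1.32, limma adjusted p = 4.82e-07). Of 16 nonsense-mediated decay factors, 10 were higher and none lower (median 0.44), with Magoh at 1.28 and Eif4a3 at 0.94. Of 16 microRNA processing proteins, 4 were higher and 5 lower (median -0.18). Dicer1, which cuts hairpin precursors, was higher (0.51), and Ago3 and Ddx17 were lower (-0.60 and -0.76).

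Within the groups, the members did not vary evenly over the libraries. EXO replicate 1 had the highest value of its group in 74 members and EXO replicate 3 the lowest in 82, with a median difference of -0.17 on the log2(FPKM + 1) scale from the rest of its group. LPS replicate 4 was the lowest of its group in 79 members, with a median difference of -0.14. By level, 11 of 32 members with a mean of at least 10 FPKM were called higher and 13 lower, and of 102 members under 5 FPKM 19 and 35. The shares of all genes tested were 33.7% higher and 24.7% lower. The members under 5 FPKM include those that reached 2 FPKM through EXO only or LPS only, so nothing is read from the difference between the levels. The last members inside the level of 2 FPKM were 2010001A14Rik (mean 2.01) and E130102H24Rik (mean 2.004), and the first non-coding genes outside it were Gm54112 (1.99) and Gata3un (1.98).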

How the data were processed

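RNA sequencing of 8 mouse libraries, 4 titled EXO and 4 titled LPS, was analysed from 1 table of FPKM values that the authors deposited. Per the labels' protocols, TRIzol was used for extraction and the VAHTS Universal V6 kit for library preparation. HISAT2, an aligner, and build GRCm39 (mm39) are named per the submitters' processing notes. For the counting tool, the strand setting and the annotation release, nothing was given in the labels. Nothing says that replicates were separate cultures, so the spread between libraries, and with it every p-value, may be technical.

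Whole fragments and gene lengths were recovered from the steps of the values (17645 of 17645 detected genes, tolerance 0.01), for depth and for 1 alternative. Genes with at least 1 FPKM in at least 4 libraries (9812) were compared on log2(FPKM + 1) in limma 3.58.1 (R 4.3.3) using an intensity trend and robust variances, two-sided, with Benjamini-Hochberg adjustment over all of them. The fit was tested on simulated data. Neighbours, hosted small RNAs, microRNA sequences and promoters came from RefSeq and GENCODE annotation of GRCm38, another build than the authors'. Members were matched by the Entrez gene number of the deposited table, and by symbol for positions in GENCODE. Because the builds differ, coordinates are given only for the printed microRNAs and promoters, in GRCm38.p6.

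The members and lists were chosen with earlier results of these data known. The genes named are the 10 most abundant members, the 10 highest and 10 lowest called without overlap, members in the lists, members named as opposite strand or microRNA host with their sense genes, the members at the threshold, and up to 3 partners per list with the smallest p. Others are said to be chosen after their values were seen. Alternatives were another pseudocount, filter, scaling, test, membership level, a block for replicate number, and libraries left out.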

Additional observations from a re-analysis of the deposited data

Results flagged for a closer look

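In 48 named members and 96 groups of 4 libraries, 9 groups had 1 library far from the other 3 by Dixon's criterion, which chance alone meets in about 1 in 20 groups. The values are given without an explanation.

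LPS replicate 2 stood above the other LPS libraries for 3 genes. Gm28188 had 8.07 FPKM there and 5.02 to 5.39 in the others, Gm33370 had 54.0 against 37.8 to 39.5, and Gm34181 had 38.3 against 23.4 to 25.1. LPS replicate 1 was the highest for Epb41l4aos, at 45.6 FPKM against 30.1 to 32.0, and the lowest for Gm43351, at 40.4 against 49.4 to 51.1.

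EXO replicate 2 stood above its group for Gm20559, at 2.76 FPKM against 1.53 in each of the others, and for Gm39985, at 9.18 against 2.56 to 3.65. EXO replicate 1 was the highest for Gm28188, at 2.19 FPKM against 0.843 to 1.06, and EXO replicate 4 the highest for Dubr, at 5.18 against 3.98 to 4.05.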

How the results depend on the processing

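Of the 40 members called higher, 27 kept the call under every one of the 15 alternatives of the fit that tested them, and of the 65 called lower, 60 did. With a mean of at least 5 FPKM to enter the fit, 82 members were tested, with 21 called higher and 30 lower. A membership level of 5 FPKM gave the same counts, 21 and 30 of 82, and a level of 1 FPKM gave 63 and 110 of 300, as the sets hold fewer or more genes. Leaving out 1 library at a time gave 30 to 41 members higher and 59 to 68 lower, and 2867 to 3652 and 2005 to 2385 of all genes tested. Correlations of same-numbered libraries, after their group means were taken out, ran from -0.292 to 0.17. With 4 libraries a group, these values cannot decide whether the replicate numbers pair the samples. With the replicate number as a block, 41 members were called higher and 67 lower, and 3253 and 2339 of all genes.

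Over 102 named genes and 1498 recomputed values, 1421 kept direction and side of the threshold, 39 lost the call, 29 gained it and 9 changed sign. Epb41l4aos stood at -0.0294 with rescaling, -0.0044 without LPS replicate 2 and -0.0145 without LPS replicate 4, within -0.0145 to 0.18 over single libraries left out. Ptgs2 stood at -0.14 without EXO replicate 2, -0.09 without LPS replicate 1 and -0.14 without LPS replicate 2, within -0.14 to 0.56. Zfp652 stood at 0.0349 without EXO replicate 3 and 0.0127 without LPS replicate 1, within -0.0893 to 0.0349, and 2010001A14Rik at -0.0046 without EXO replicate 2 and LPS replicate 4 together. None of these was called as reported, and the cause was not tested. AA465934 stood at 0.49 without LPS replicate 4, against 0.81. On the fragment counts with voom, E130102H24Rik (-1.87), Gm34643 (-2.44), Gm39985 (2.61), Gm40007 (2.19) and Ago3 (-1.13) changed more than on log2(FPKM + 1), a scale that compresses low values. Depth limits the shortest and lowest members, which rest on as few as 3 fragments in a library.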
